A study of Mus musculus with 8 samples.

Results

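The TRAIL and death receptor genes were followed in tumor endothelial cells, the cells that line tumor blood vessels, after treatment of B16.F10 melanoma with an agonistic CD40 mAb. Members were taken by gene symbol from a list of 8 genes, namely the ligand gene Tnfsf10, the receptor genes Tnfrsf10b, Fas and Tnfrsf1a, and the signaling genes Casp8, Cflar, Bid and Ripk1. All 8 were found among the 20057 genes measured. The rule uses symbols and no measured value, but the list was drawn up with earlier results of these data known. Male C57BL/6 mice aged 8 weeks carried subcutaneous tumors grown from 250000 B16.F10 cells, a mouse melanoma line. Antibody was injected beside the tumor 2 times, 30 µg each, at day 13 and again at day 16. It was the CD40 agonist FGK4.5 in 4 mice (5N, 6L, 6R and 10N) and the rat IgG2a isotype control 2A3 in the other 4 (5L, 7N, 8N and 9L). By the labels and the main methods, tumors were taken 1 day after the last injection. The supplementary methods give 1 and 4 days for the sorting experiments, without saying which assay used which day. In its results the paper describes 4-day samples for the IDO1 comparison of sorted endothelial cells and leukocytes. About 100000 living CD45-CD31+ cells were sorted from each tumor, and a library was taken as 1 tumor of 1 mouse. The names 6L and 6R share a number, as do 5N and 5L. No allele or transgene is named in the labels, and they do not say whether mice shared a litter or cage, so p-values measure the spread between these 8 libraries.

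TRAIL is a membrane-bound or shed ligand of the TNF family that gathers death receptors on a target cell. The engaged receptors bind the adaptor FADD, which draws in procaspase-8, and active caspase-8 cleaves executioner caspases and BID, the BCL-2 family protein that carries the signal to mitochondria. The same receptors can also signal survival and inflammation through RIPK1 and NF-κB, and endothelial cells as a rule resist killing by these ligands. The question behind the comparison was which transcripts of the tumor vessel lining differ after the CD40 agonist.

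Values are normalized reads, that is, reads on a gene divided by a size factor of its library. Reads on genes ranged from 12512772 to 64938728 in the agonistic CD40 mAb libraries and from 2971689 to 35583141 in the isotype control libraries. The 3 shallowest libraries were all isotype controls. One read was worth 0.118 normalized reads in library 5N and 2.44 in library 5L. All 12 endothelial marker genes were above 0 in every library, and their summed level was 50926 to 72358 in treated and 43908 to 61646 in control libraries (exact permutation test, p = 0.429). Markers of melanoma cells (34553 to 58341 against 37047 to 89692) and of fibroblasts (36152 to 85913 against 29159 to 65928) were also abundant, although the sort took CD31+ cells.

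Promoter stretches are shown for the 3 members in which the core of the binding site of interferon regulatory factors, AANNGAAA on either strand, lies wholly before the RefSeq start. The stretches are from RefSeq (GRCm38.p6), 5′ to 3′ on the plus strand, with matches to that core in capitals. They belong to Tnfsf10 (chr3:27316827-27317057, of which the last 30 bases lie in its first GENCODE exon), Casp8 (chr1:58802252-58802501, inside an intron of its longer transcripts) and Fas (chr19:34290409-34290658).
Tnfsf10: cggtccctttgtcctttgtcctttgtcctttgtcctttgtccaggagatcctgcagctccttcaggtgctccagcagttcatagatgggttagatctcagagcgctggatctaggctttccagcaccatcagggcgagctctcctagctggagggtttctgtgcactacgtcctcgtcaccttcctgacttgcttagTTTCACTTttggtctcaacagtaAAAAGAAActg
Casp8: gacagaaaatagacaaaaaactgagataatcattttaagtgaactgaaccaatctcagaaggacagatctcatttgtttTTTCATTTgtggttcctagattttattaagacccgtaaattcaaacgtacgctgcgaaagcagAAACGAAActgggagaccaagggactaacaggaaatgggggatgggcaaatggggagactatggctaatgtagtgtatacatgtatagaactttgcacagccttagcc
Fas: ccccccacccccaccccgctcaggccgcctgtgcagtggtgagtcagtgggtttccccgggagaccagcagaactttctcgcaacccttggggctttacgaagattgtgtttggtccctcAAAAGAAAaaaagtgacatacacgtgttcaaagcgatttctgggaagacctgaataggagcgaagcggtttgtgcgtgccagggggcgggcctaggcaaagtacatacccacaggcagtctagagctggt

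The core occurred in 7857 of 32851 mouse promoter windows, each 250 bases before to 50 bases after a start (23.9%), and 5.34% of windows held it at least 2 times. Relative to the RefSeq start, Tnfsf10 held it 53 and 30 bases before, Casp8 171 and 108 bases before, and Fas 130 bases before and 39 bases after. In Tnfsf10 the match at 30 bases lies inside the first GENCODE exon, and the one at 53 bases spans the GENCODE start. Of the other members, Ripk1 had a match 3 bases before a start and Cflar 6 bases after. The STAT core TTCNNNGAA, found in 8.30% of windows on either strand, was present before the RefSeq starts of Fas (93 bases), Tnfrsf1a (244 bases) and Ripk1 (108 and 11 bases). All Ripk1 matches belong to a RefSeq start inside the gene, and the Ripk1 window at its GENCODE start held neither core. The Tnfrsf1a match lies after the GENCODE start of that gene. No member window held the NF-κB core GGNNTTTCC, which 5.82% of windows did on either strand. A promoter window was matched for 7 of the 8 members, all but Tnfrsf10b. These matches are letters in a sequence, and neither binding nor promoter activity was measured.

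Tnfsf10, the gene of the ligand TRAIL, was the member that rose. It lies on the plus strand of chromosome 3 (chr3:27317028-27342427, mm10). With agonistic CD40 mAb its normalized reads were 495 in 5N, 685 in 6L, 555 in 6R and 455 in 10N. With isotype control they were 176 in 5L, 171 in 7N, 308 in 8N and 202 in 9L. Every treated library was above every control library, with 10N the lowest treated and 8N the highest control value. The means were 547 ± 100.6 and 214 ± 63.8 (SD, n = 4 each), a ratio of 2.56. On the log2(value + 1) scale the difference was 1.37 (SE 0.20, 95% interval 0.92 to 1.83), which is 1.90-fold to 3.54-fold. The unadjusted limma p was 3.67e-05, which ranked 4 among 12969 genes tested, and the Benjamini-Hochberg adjusted p was 0.119. The exact permutation test gave p = 0.0286, the smallest that 4 against 4 libraries allow. In reads, 7721 and 1300 stood behind the 2 groups, with 72 in the library that had the fewest.

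Left out in turn, no library brought the Tnfsf10 log2 fold change below 1.26 (without 6L) or above 1.56 (without 8N). The adjusted limma p ranged from 0.0217 without 8N to 0.674 without 6R. It was under 0.05 without 8N and without 5L (0.0417) and at 0.179 or above in the other 6 cases. On reads recovered from the normalized values, it was 0.0708 with edgeR, 0.0946 with voom and 1.17e-06 with DESeq2.

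**Figure D1:**
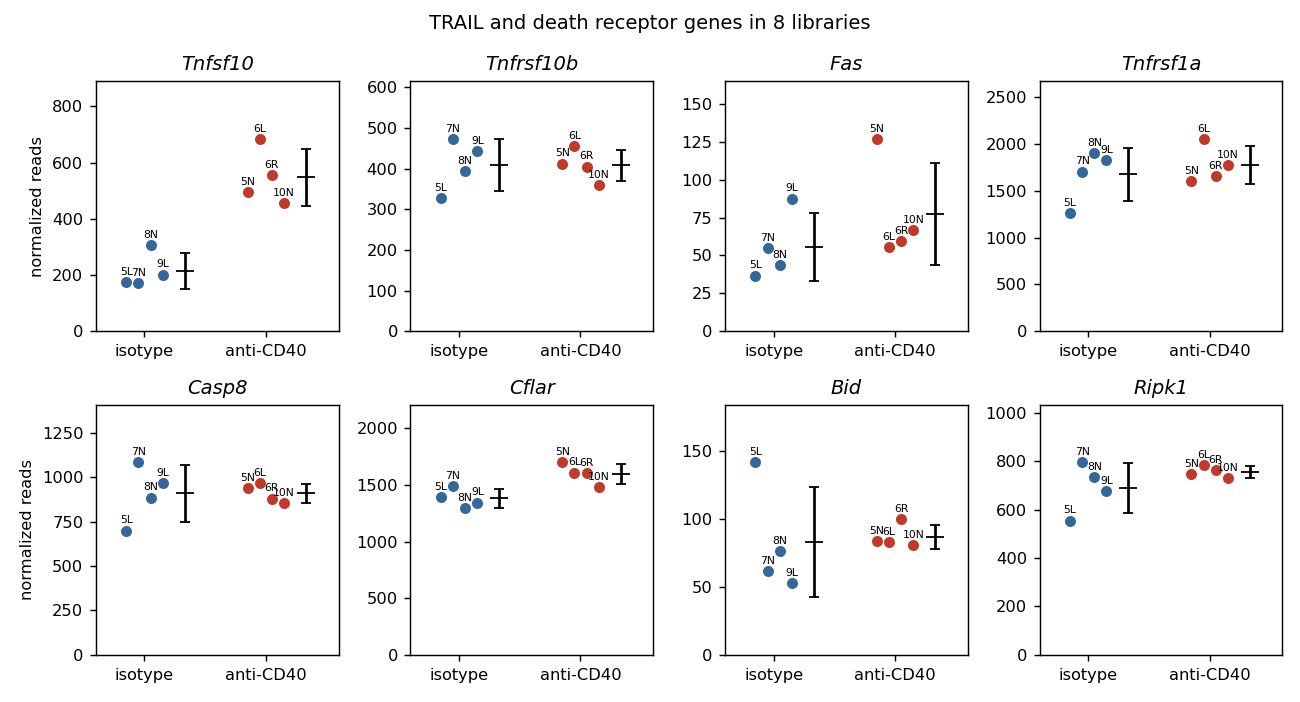
Normalized reads of the 8 members (vertical axis, from 0) in each library, labelled by mouse, for isotype control (blue) and agonistic CD40 mAb (red), with the mean and SD of 4 libraries beside the points. The groups are apart for Tnfsf10, where treated libraries start at 455 and controls end at 308, and they overlap for the other 7 genes.

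Tnfrsf10b, the gene of the mouse TRAIL receptor DR5 (chr14:69767472-69784411, plus strand), had nearly equal means in both groups. Its normalized reads were 412, 455, 405 and 359 in 5N, 6L, 6R and 10N, and 327, 473, 395 and 442 in 5L, 7N, 8N and 9L. The lowest and the highest value were both in control libraries, and the groups overlapped. The means of 408 ± 39.1 and 409 ± 63.5 gave a log2 fold change of 0.00 (SE 0.14, 95% interval -0.31 to 0.32, or 0.804-fold to 1.25-fold; limma p = 0.984, exact permutation p = 0.971).

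Fas, the gene of the receptor for Fas ligand (chr19:34290666-34327772, plus strand), was the least precisely measured receptor among the members. It gave 127 normalized reads in 5N but 55.4, 59.6 and 66.8 in 6L, 6R and 10N, beside 36.7, 54.7, 43.6 and 87.5 in 5L, 7N, 8N and 9L. Library 5N was the highest of all, and control library 9L was above the other 3 treated libraries. The means were 77.2 ± 33.5 and 55.6 ± 22.5, with a log2 fold change of 0.46 (SE 0.34, 95% interval -0.28 to 1.20, or 0.823-fold to 2.30-fold; limma p = 0.198, exact permutation p = 0.371). The log2 fold change was 0.20 without 5N and 0.70 without 9L. Only 15 reads stood behind the value in 5L.

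Tnfrsf1a, which encodes TNF receptor 1 (chr6:125349362-125362484, plus strand), was the most abundant member per length. Its normalized reads were 1599, 2054, 1658 and 1776 in 5N, 6L, 6R and 10N and 1263, 1703, 1902 and 1823 in 5L, 7N, 8N and 9L. Control library 5L was the lowest and treated library 6L the highest, with the rest intermixed. The log2 fold change was 0.09 (SE 0.15, 95% interval -0.23 to 0.42, or 0.851-fold to 1.34-fold; limma p = 0.542, exact permutation p = 0.629) from means of 1771 ± 202 and 1673 ± 285.

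Casp8 and Cflar lie on the plus strand of chromosome 1, with Cflar (chr1:58711508-58758884) ending 36.5 kb before Casp8 (chr1:58795374-58847503). Casp8 encodes the initiator caspase-8, and Cflar encodes c-FLIP, which resembles caspase-8 without its catalytic activity and limits its activation at the receptor. Casp8 gave 939.5, 964, 879.6 and 852 normalized reads in 5N, 6L, 6R and 10N, and 699, 1082, 885 and 966 in 5L, 7N, 8N and 9L. The treated values lay inside the range of the control values. Its log2 fold change was 0.02 (SE 0.14, 95% interval -0.29 to 0.33, or 0.817-fold to 1.25-fold; limma p = 0.902, exact permutation p = 1.00), from means of 909 ± 52.1 and 908 ± 161.

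Cflar came second among the members in its unadjusted p. Treated libraries gave 1699.7, 1610.2, 1603 and 1482 normalized reads in 5N, 6L, 6R and 10N, and controls gave 1393, 1489, 1299 and 1345 in 5L, 7N, 8N and 9L. The groups met at one point, where 10N was just below 7N. With means of 1599 ± 89.4 and 1382 ± 81.5, the ratio of 1.16 was below the fold limit of 1.5. The log2 fold change was 0.21 (SE 0.10, 95% interval -0.01 to 0.43, or 0.991-fold to 1.35-fold), with a limma p of 0.0631 and an exact permutation p of 0.0571. Leaving out each library in turn gave 0.18 to 0.25, and scaling libraries to their endothelial marker sum gave 0.047.

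Bid (chr6:120891930-120916853, minus strand), whose protein links caspase-8 to mitochondria, was the lowest member per length over its whole exon length. Its normalized reads were 83.9, 83.0, 99.9 and 80.7 in 5N, 6L, 6R and 10N, and 142, 61.9, 76.2 and 52.9 in 5L, 7N, 8N and 9L. Library 5L was the highest and 9L the lowest, so the control range enclosed the treated one. The log2 fold change was 0.16 (SE 0.29, 95% interval -0.47 to 0.80, or 0.723-fold to 1.74-fold; limma p = 0.580, exact permutation p = 0.914), and it was 0.45 without 5L and -0.02 without 9L. Over 17.7% of its exon length Bid overlaps Bcl2l13 on the opposite strand, and reads of the 2 genes cannot be told apart there because the library kit does not mark strand.

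Ripk1 (chr13:34002363-34037147, plus strand) encodes the kinase that stands between survival and death signals at these receptors. It gave 746, 785, 763 and 729 normalized reads in 5N, 6L, 6R and 10N, and 555, 795, 734 and 675 in 5L, 7N, 8N and 9L. The treated libraries were close together, and the controls reached from 5L, the lowest, to 7N, the highest. The log2 fold change was 0.14 (SE 0.13, 95% interval -0.14 to 0.42, or 0.910-fold to 1.34-fold; limma p = 0.283, exact permutation p = 0.286).

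The threshold was a 1.5-fold difference between the group means, up or down, with an unadjusted limma p of at most 0.05. At that threshold 1 of 8 members was higher and 0 were lower with agonistic CD40 mAb, where 1.28% of all tested genes were higher and 0.239% lower. Groups did not overlap for 1 of 8 members, higher in treated libraries, against 1.09% of tested genes in that direction and 0.486% in the other. At an adjusted p under 0.05 limma and edgeR called 0 of 8 members, where they called 0.0154% and 0.0231% of the 12969 genes. DESeq2 called 1 member, Tnfsf10, and 0.493% of the genes. An unadjusted limma p of at most 0.05 was reached by 1 of 8 members and by 2.01% of all tested genes. For 5 members (Tnfrsf10b, Tnfrsf1a, Casp8, Cflar and Ripk1) the 95% interval lay within 1.5-fold in both directions. For Fas and Bid it reached beyond 1.5-fold, so a change of that size could not be told from none. The median log2 fold change was 0.15 over the 8 members and 0.00 over all 12969 tested genes. Library 5L, the shallowest, held the lowest value for 5 of the 8 members, for 28 of 63 tested pathway genes (44.4%) and for 29.6% of all tested genes. It held the highest value for 1 member, for 9 pathway genes (14.3%) and for 20.9% of all tested genes, so extreme values in 5L were common beyond this pathway. It also had the highest melanoma marker sum (89692, at most 58341 elsewhere) and the lowest endothelial marker sum (43908), whose part in these low values was not tested. Without it the log2 fold change was -0.10 for Tnfrsf10b, -0.04 for Tnfrsf1a, -0.10 for Casp8 and 0.04 for Ripk1, and none of the 4 genes passed the threshold. Library 7N held the highest value for 3 members, for 16 pathway genes (25.4%) and for 26.5% of all tested genes. It held the lowest for 21.1% of all tested genes. Without 7N the same 4 genes were at 0.077, 0.11, 0.11 and 0.22, and again none passed.

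Levels of different genes were compared per length, as normalized reads per kb of exon. With isotype control the order was Tnfrsf1a (646 ± 110), Casp8 (314 ± 55.7), Cflar (109 ± 6.43), Ripk1 (82.6 ± 12.3), Tnfrsf10b (75.1 ± 11.7), Tnfsf10 (40.7 ± 12.1), Fas (27.0 ± 10.9) and Bid (23.4 ± 11.3). The neighbours whose ranges overlapped were Ripk1 and Tnfrsf10b, Tnfsf10 and Fas, and Fas and Bid. With agonistic CD40 mAb Tnfsf10 stood at 104 ± 19.1, at rank 4, between Cflar (126 ± 7.06) and Ripk1 (90.6 ± 2.85), and its range overlapped both. It was then above Tnfrsf10b (74.8 ± 7.17) and above Fas (37.4 ± 16.3) in all 4 libraries. This order depends on the length used. With the median length of a gene's coding transcripts in place of the length of all its exons, Cflar was above Casp8 in both groups, Bid was above Fas in both, and Ripk1 was above Tnfsf10 with agonistic CD40 mAb. However, Tnfsf10 was below Tnfrsf10b with isotype control and above it with agonistic CD40 mAb under both lengths.

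**Figure D2:**
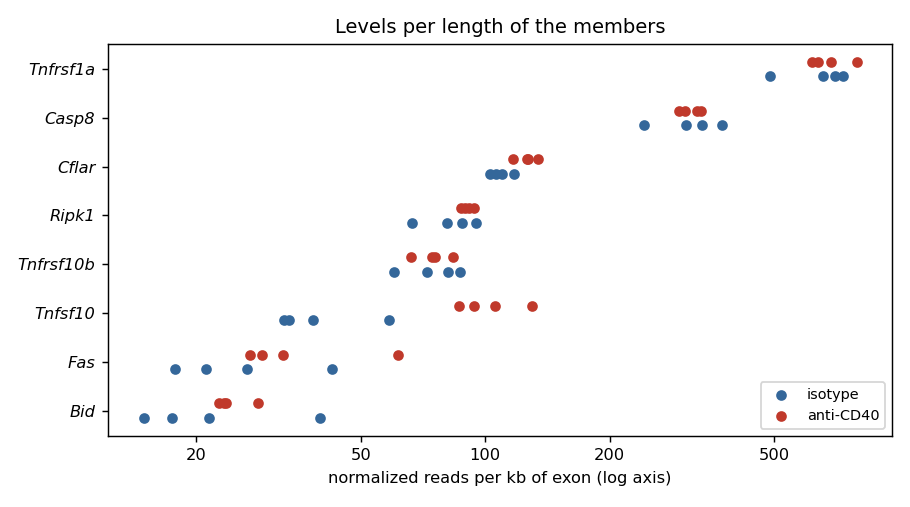
Normalized reads per kb of exon (horizontal log axis) of the 8 members in the 4 isotype control (blue) and 4 agonistic CD40 mAb libraries (red), 1 point per library. Tnfsf10 moved from a mean of 40.7, below Tnfrsf10b, to 104, above it, while the points of Tnfrsf1a stayed near the top in both groups.

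Ratios of 2 genes within a library depend little on how libraries are scaled, and 3 were compared, on values with 1 added. They are not per length, so only their differences between groups are read. Tnfsf10 to Tnfrsf10b, the ligand to its receptor, was 1.199, 1.505, 1.37 and 1.26 in 5N, 6L, 6R and 10N. In 5L, 7N, 8N and 9L it was 0.539, 0.363, 0.780 and 0.457. Every treated library was above every control, the closest being 5N and 8N. The difference of 1.37 on the log2 scale (SE 0.24), or 2.59-fold, had an exact permutation p of 0.0286 and an adjusted p over the 3 ratios of 0.0857. Without 6L, 6R or 10N the exact permutation p was 0.0571, with a log2 difference of 1.31, 1.36 and 1.40 and the groups still apart. With a library left out there are fewer regroupings, and p moves only in steps of 0.0286.

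Cflar to Casp8, the inhibitor to the protease, was 1.81, 1.67, 1.82 and 1.74 in 5N, 6L, 6R and 10N, and 1.99, 1.38, 1.47 and 1.39 in 5L, 7N, 8N and 9L. The treated libraries lay above 3 of the 4 controls and below 5L. The log2 difference was 0.19 (SE 0.13, 1.14-fold; exact permutation p = 0.171, adjusted p = 0.229). Without 5L it was 0.32, with an unadjusted exact permutation p of 0.0286, the smallest that 4 against 3 libraries allow. On which side of 0.05 this ratio falls thus depends on 1 library. Fas to Tnfrsf10b was 0.310 in 5N and 0.113 to 0.200 in all other libraries. Its log2 difference was 0.46 (SE 0.35; exact permutation p = 0.229, adjusted p = 0.229). It was 0.20 without 5N and 0.66 without 9L.

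**Figure D3:**
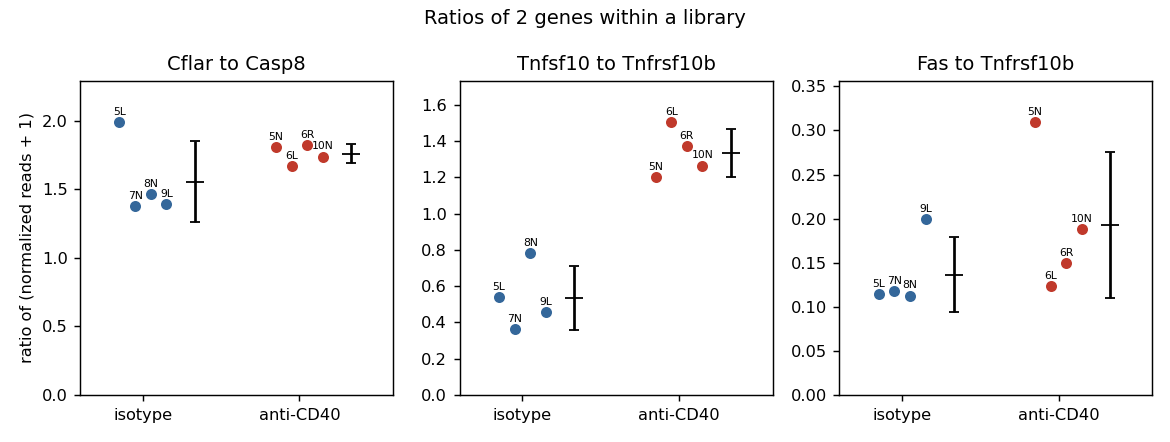
Ratios of 2 genes within each library (vertical axes from 0, on values with 1 added), with the mean and SD of 4 libraries beside the points labelled by mouse. Only for Tnfsf10 to Tnfrsf10b are the 4 agonistic CD40 mAb libraries, from 1.199 to 1.505, apart from the 4 isotype control libraries, from 0.363 to 0.780.

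The wider pathway was described with a list of 67 genes that holds the 8 members. Of these, 63 were abundant enough to be tested, their mean in at least 1 group being above 10 normalized reads. Higher at the threshold were 2 of 63, Tnfsf10 and Casp1, and 0 were lower, beside 1.28% and 0.239% of all tested genes. An unadjusted limma p of at most 0.05 was reached by 3 of the 63 and by 2.01% of all tested genes. An adjusted limma p under 0.05 was reached by 0 of the 63 and by 0.0154% of all tested genes. The median log2 fold change was 0.07 over the list and 0.04 over the 55 tested genes that are no members.

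Of the 5 other ligand genes, Tnfsf12 was at 87.2 ± 18.2 normalized reads per kb in treated and 60.1 ± 16.4 in control libraries, on average below Tnfsf10 in the former group and above it in the latter, with overlapping ranges in both. The remaining 4 were far lower. Tnf, the gene of TNF, gave 20.5 ± 6.78 normalized reads in treated and 11.5 ± 10.3 in control libraries, a ratio of 1.78. Its log2 difference of 1.23 did not pass the threshold (SE 0.68, limma p = 0.1001, exact permutation p = 0.171). That difference was 0.78 without 5L and 1.68 without 7N, where it passed. In the library with the fewest, Tnf rested on 1 read. Tnfsf12, the gene of TWEAK, had means of 132 ± 27.6 and 91.1 ± 24.9. Its unadjusted limma p was 0.0499 (log2 fold change 0.55, SE 0.25), but its ratio of 1.45 was below the fold limit. The log2 fold change of Tnfsf12 was 0.34 without 5L and 0.68 without 6R, where it passed. Of its sequence windows, 46.8% are shared with the readthrough gene Tnfsfm13. Fasl, the gene of Fas ligand, had 6 reads in all treated libraries and 22 in all controls, of which 20 were in 9L. Lta, the gene of lymphotoxin alpha, had 3 and 1 reads, and Tnfsf15, the gene of TL1A, had 33 and 2, of which 26 were in 5N, the deepest library. In normalized reads the Tnfsf15 means were 1.79 ± 1.74 and 0.94 ± 1.16. Those 3 genes were too low to be tested.

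Among receptors, 0 of 5 death receptor genes and 0 of 6 decoy and other receptor genes passed the threshold, with median log2 fold changes of 0.15 and -0.01. Of all tested genes 1.28% were higher and 0.239% lower, and at these shares most classes of 5 or 6 genes would hold none. Tnfrsf21, which encodes DR6, had means of 287 ± 48.6 and 279 ± 108, and Tnfrsf25, which encodes DR3, had 21.4 ± 8.43 and 22.3 ± 17.2. The soluble decoy osteoprotegerin (Tnfrsf11b) had a log2 fold change of -0.09 (131 ± 41.2 against 140 ± 49.5). Mouse cells also carry decoy TRAIL receptors on the cell surface, and their genes Tnfrsf22 (537 ± 102 against 510 ± 76.3) and Tnfrsf23 (1016 ± 60.9 against 1033 ± 343) had log2 fold changes of 0.07 and 0.05. These neighbours on chromosome 7 share 27.4% and 18.0% of their sequence windows, so reads may be split between them. Their relative Tnfrsf26 stood at 217 ± 17.4 and 237 ± 71.2. The TNF receptor 2 gene Tnfrsf1b had a log2 fold change of 0.34 (limma p = 0.0915, exact permutation p = 0.114), which was 0.16 without 5L. The TWEAK receptor gene Tnfrsf12a had one of -0.06.

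Among adaptors, kinases and ubiquitin enzymes 0 of 20 genes passed, with a median log2 fold change of 0.08. This count and those of the classes below stand beside 1.28% of all tested genes higher and 0.239% lower. The most reads, not divided by length, were on Tax1bp1, which encodes a partner of the ubiquitin-editing enzyme A20, with means of 1606 ± 45.3 and 1668 ± 168. In the class of caspases and their regulators 1 of 15 genes was higher and 0 were lower (median 0.03). That gene was Casp1, the inflammatory caspase that processes IL-1β, which is not an effector of death receptors. It gave 78.1 normalized reads in 5N, 47.0 to 52.1 in the other treated libraries and 28.5 to 48.1 in the controls. Library 9L was above 10N, so its groups overlapped. Its log2 fold change was 0.66 (SE 0.26, limma p = 0.0309, adjusted p = 1.00; exact permutation p = 0.0571). Casp1 did not pass without 5N, without 5L, without 7N or without 8N, nor with voom or after scaling to the endothelial markers. It passed in 15 of 21 alternatives, and over all of them its log2 fold change was 0.50 to 0.81. Across changes of pseudocount, filter or test its ratio of group means stayed at 1.59, so only p could alter the call. Xiap, which encodes an inhibitor of effector caspases, had a log2 fold change of 0.03, and Cycs, the gene of cytochrome c, one of -0.16. The BCL-2 family had 0 of 14 tested genes past the threshold (median 0.01), with Mcl1, a survival gene, at 2470.1 ± 131 and 2489 ± 397 and Bak1, a pore-forming member, at 684 ± 153 and 617 ± 84.3. The fifteenth, Hrk, was too low to be tested.

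**Figure D4:**
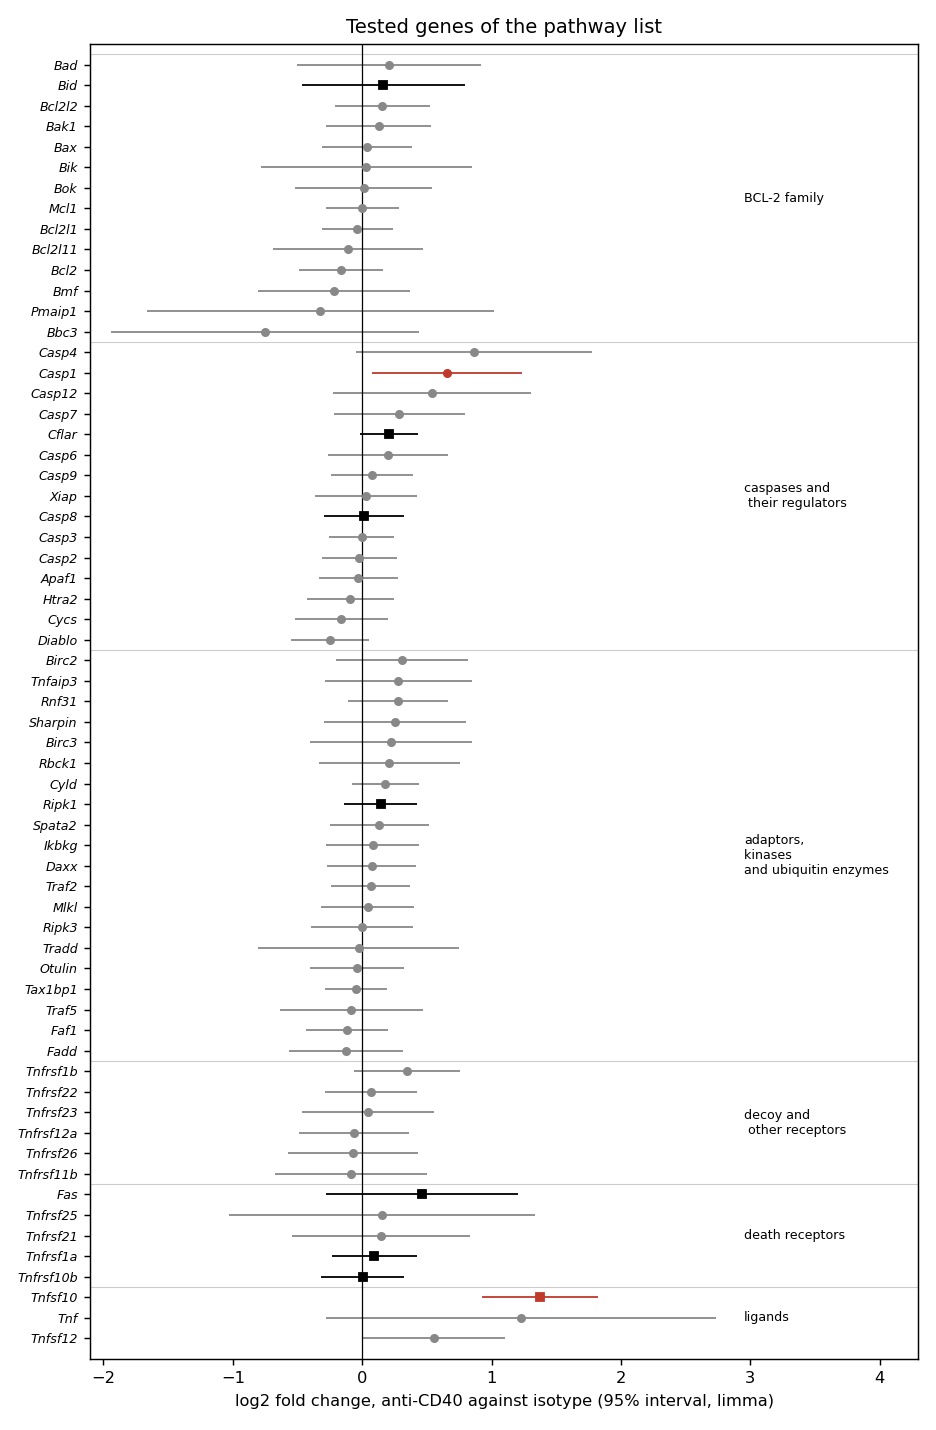
Log2 fold changes, agonistic CD40 mAb against isotype control (horizontal axis), of the 63 tested pathway genes by class, with 95% intervals from limma; squares are the 8 members and red marks the genes past the threshold. Tnfsf10 at 1.37 and Casp1 at 0.66 are the red points, and the intervals of the other members include 0.

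The profile of Tnfsf10 over the 8 libraries was compared with those of all tested genes by the root mean square difference of log2(value + 1), each gene centred on its own mean. The nearest were H2-D1 (0.29), Zc2hc1c (0.30), Pla2g16 (0.30), Aim1 (0.31) and Gbp7 (0.31). H2-D1, a classical MHC class I heavy chain gene, had means of 9294 ± 2381 and 4436 ± 1325, and Gbp7, a guanylate-binding protein gene, had 1170.3 ± 147 and 513 ± 191. Zc2hc1c, at 10.2 ± 3.14 and 4.39 ± 2.72, was close to the limit for testing. The other members were farther from Tnfsf10, from 0.66 for Cflar to 0.79 for Bid, where the median over all tested genes was 0.79. Nearness here includes the treatment difference itself and the order of libraries within groups.

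The sort took CD45- cells, a gate that removes leukocytes, but RNA of other cells can remain, and in bulk samples fewer cells of a type and less RNA per cell cannot be told apart. The summed level of 11 T and NK cell markers, cells that can express TRAIL, was 5.23 to 15.04 normalized reads in treated and 0 to 10.2 in control libraries. Mean normalized reads in treated and control libraries were 1.99 and 0 for Prf1, 1.57 and 0 for Cd8a, 0.90 and 0 for Gzmb, and 0.47 and 0 for Cd3e, from 42, 14, 6 and 8 reads in the deeper treated group. They were 2.11 and 2.07 for Klrb1c, 0.59 and 2.03 for Cd4, and 1.13 and 1.87 for Cd2, and Cd3d had 0 in every library. Ptprc, the gene of CD45, had means of 9.99 and 2.52. Tnfsf10 was at 171 to 685 normalized reads in the same libraries, but these values are not per length, so its level is not compared with those of the markers. Macrophage and monocyte markers summed to 331 to 557 and 222 to 516, and dendritic cell markers to 267 to 399 and 210.2 to 342. The latter sum was mostly Zbtb46 (means 216 and 212) and Clec9a (99.4 and 76.7), while Itgax, Flt3 and Xcr1 had means of at most 4.41. The 7 leukocyte markers summed to 1433 to 1579 and 1158 to 1621, mostly Lcp1. Red blood cell genes, 181 to 780.4 and 574 to 5786, all 3 passed the threshold as lower in treated libraries. The 5 lymphatic endothelial markers summed to 3047 to 5068 and 2050 to 3821 (exact permutation p = 0.400). All 5 had higher means in treated libraries, and 0 passed the threshold. Their sum was highest in 6L among treated and in 8N among control libraries, as were the endothelial marker sum and Tnfsf10. The part of these cells in the Tnfsf10 difference was not tested.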

How the data were processed

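RNA from CD45-CD31+ cells of 8 B16.F10 tumors, 4 per group, was sequenced with a kit that does not mark strand. Per the labels and methods, the authors demultiplexed reads with CASAVA 1.8, aligned them to mm10 with TopHat2 (Bowtie2 2.2.1), used Partek Genomics Suite 6.6 to derive gene information and applied DESeq2 normalization. The deposited values are this signal, reads per gene divided by 1 size factor per library, and 99.9% of them are whole reads within 0.1 read. The correction for harvest day, flooring and trimming that the methods state cannot be seen in them.

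The 12969 genes whose mean exceeded 10 in at least 1 group were tested as log2(value + 1) with limma 3.58.1 (R 4.3.3), with a variance trend and treatment as the only term, and p-values were adjusted by the Benjamini-Hochberg method. Single values were compared by two-sided exact permutation tests over 70 regroupings, or fewer where a library was left out. edgeR 4.0.16 and DESeq2 1.42.0 were run on recovered reads. The fitting was also run on simulated data, from which no value or conclusion here is taken. Positions are from GENCODE M21. Reads carry no molecular identifiers, and their numbers cover counting error only. The members and lists were chosen with earlier results of these data known. Named genes are all members, ligands and receptors, in other classes those with p of at most 0.05 and the 2 most abundant, and the 5 profiles nearest to Tnfsf10. Alternatives covered pseudocounts, filters, scaling, the test and each library left out. The fold part of the threshold was recomputed only where scaling or the libraries changed.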

Additional observations from a re-analysis of the deposited data

Results flagged for a closer look

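Within each group of 4 libraries, the highest or lowest value of the named pathway genes was compared with Dixon's 95% critical value. Of 54 groups checked, 7 had a library that far from the others, and chance gives about 1 in 20. Fas in 5N was 127 normalized reads, far above the other agonistic CD40 mAb libraries, and Casp1 in the same library was 78.1. Bid in 6R was 99.9, above the other treated libraries. Among isotype controls, Tnfrsf11b (214) and Xiap (2500.4) were high in 7N, Tnfrsf1b was low in 5L (190.6), and Lta was above 0 only in 9L (0.217, which is 1 read).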

How the results depend on the processing

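Tnfsf10 was past the threshold in all 21 alternatives, with log2 fold changes of 1.05 to 1.56 and adjusted p from 1.17e-06 to 0.681, and the other 7 members passed in none. No paired analysis was possible because the labels give no replicate numbers, and of the numbers in the mouse names only 5 occurs in both groups. The labels used here give no harvest day per mouse, so it is not a term in the model, and its part in the differences was not tested.

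Fold changes near 0 changed sign, always below the threshold, and the cause was not tested. With quantile normalization the log2 fold change of Tnfrsf10b was -0.012. With library quality weights Tnfrsf10b was at -0.018, Tnfrsf1a at -0.060 and Casp8 at -0.012. On recovered reads Tnfrsf10b was at -0.0093 with edgeR, -0.013 with DESeq2 and -0.029 with voom, and Casp8 at -0.00168 with DESeq2 and -0.00116 with voom. Scaling to the endothelial marker sum, chosen after seeing the data, moved the median of all genes to -0.16. There Tnfrsf10b was at -0.16, Tnfrsf1a at -0.070, Casp8 at -0.15 and Ripk1 at -0.020. Cflar was at 0.047 and Bid at 0.0013, and Tnfsf10 was at 1.21.

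Leaving out each library in turn gave log2 fold changes of -0.10 to 0.077 for Tnfrsf10b, -0.036 to 0.16 for Tnfrsf1a, -0.10 to 0.11 for Casp8 and -0.015 to 0.45 for Bid. The log2 difference of Cflar to Casp8 ranged from 0.14 to 0.32 and that of Tnfsf10 to Tnfrsf10b from 1.20 to 1.57, and that of Fas to Tnfrsf10b from 0.20 to 0.66. Over all genes, 124 to 234 were higher and 27 to 123 lower, the latter without 5L. In the pathway list, 1 to 4 were higher and 0 to 1 lower, Bbc3 without 10N. Tnf passed without 7N, without 9L and with weights (log2 fold change 1.81), Tnfsf12 without 6R and without 9L, and Casp12 without 7N. Over the alternatives in which each was tested, the log2 fold change was 0.40 to 1.81 for Tnf and 0.34 to 0.68 for Tnfsf12. Casp4 passed without 6R, without 7N, with weights, with DESeq2 and with voom. Bbc3, Casp4 and Casp12 were named after their values were seen.

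Against 166 genes higher and 31 lower, all genes gave 297 and 88. Genes lower numbered 13 with a mean above 50, 63 with quantile normalization, 57 without the trend, 70 with weights, 47 with edgeR, 58 with DESeq2, 68 with voom and 56 with endothelial scaling. Pathway genes higher numbered 4 with weights, 3 with DESeq2 and 1 with endothelial scaling. The shallow control libraries limit the low genes: Fas rests on 15 reads and Bid on 26 in the library with the fewest.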
